A study of Mus musculus with 9 samples.

Results

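Chemokines are small secreted proteins that guide migrating cells, and they are grouped by the spacing of their first cysteines into CC, CXC, CX3C and XC families. They act on receptors with several membrane spans that couple to inhibitory G proteins, while the atypical receptors bind chemokines without that coupling and mostly remove them. In the testis, CXCL12 and its receptor CXCR4 are known for the homing and upkeep of SSCs, and many CC ligands are made by macrophages or by stromal fibroblasts that respond to inflammatory cytokines.

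The genes described here are the chemokines and chemokine receptors of a cultured SSC line. They are the rows of the count table whose symbol is that of a chemokine (Ccl, Cxcl, Cx3cl1, Xcl) or of a chemokine receptor (Ccr, Cxcr, Cx3cr1, Xcr, Ackr) and that had at least 12 counts in at least 3 of the 9 libraries. Of 53801 genes in the table, 67 carried such a symbol and 42 met the minimum. These comprised 25 ligands (16 CC, 8 CXC and 1 CX3C) and 17 receptors (7 CC, 4 CXC, 1 CX3C, 1 XC and 4 atypical). Just inside the minimum lay Ccl22, with 12 counts in exactly 3 libraries, and just outside it lay Cxcl15 and Cxcr2, with 12 counts in 2 libraries. Of the 25 genes outside, 12 had no count in any library.

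All 9 libraries came from cultured mouse SSCs of the genotype Prmt5 flox/flox; Rosa26-CreERT2, and by the study's account all were given 4-hydroxytamoxifen (4OHT) at 1 µM, which lets a Cre recombinase expressed from Rosa26 delete Prmt5, the gene of a protein arginine methyltransferase. The group 4OHT had this alone, the group MU was read as cells overexpressing the catalytically dead PRMT5 (E444Q), and the group OE as cells overexpressing PRMT5 (WT), with 3 libraries each. The labels abbreviate both constructs, so every statement about MU and OE rests on this reading. The ethanol-treated control of the study is not analysed here, the study names male B6D2F1 pups as the source of its SSC line without saying whether the cells of this genotype came from mice of the same age, and nothing says whether the libraries of a group came from separate cultures, so p-values measure the spread between these libraries, which may be technical. The study describes its SSC cultures as grown over mouse embryonic fibroblast feeder cells, and RNA of feeder cells may be part of a library.

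Values are CPM (counts scaled to the size of the library) after TMM scaling, given in the order of the replicate numbers, and CPM per kb of exon where levels of different genes are set side by side. A gene is called higher or lower where its adjusted p (edgeR quasi-likelihood test, Benjamini-Hochberg over the 22452 genes tested) lies under 0.05. Prmt5 stood at 31.9, 30.8 and 28.2 CPM in 4OHT, 145, 147 and 146 CPM in MU and 1072, 1071 and 1085 CPM in OE, lowest in 4OHT and highest in OE. Counts over the whole gene do not show the deletion or the mutation itself. Total counts ran from 78751996 to 95370711 in 4OHT, from 192033300 to 365719548 in MU and from 79941857 to 154557863 in OE. A read pair was taken as about 4 counts, which the sources used here do not state. The minimum of 12 counts, on that reading about 3 read pairs, corresponded to 0.0317 to 0.0607 CPM in MU and to 0.0766 to 0.158 CPM in the other groups, which eased the entry of genes present in MU. The 12 spermatogonial markers, led by Dazl, Uchl1 and Ddx4, summed to 2616–2696 CPM in 4OHT, 3659–3753 CPM in MU and 3927–3967 CPM in OE. Against 4OHT, 9 of them were higher with each construct and 3 lower. Those lower were Gfra1 (log2 fold change -2.13 in MU and -2.09 in OE), Ret (-0.95 and -0.89) and Zbtb16 (-0.67 and -0.54).

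Taken over all ligands, the summed level fell from 1019 ± 94.6 CPM (SD, n = 3) in 4OHT to 538 ± 4.21 CPM in MU and 529.9 ± 3.86 CPM in OE. The sums of the 3 libraries were 1098, 1045 and 914.5 CPM in 4OHT, 542.8, 534.9 and 536.3 CPM in MU, and 532.8, 531.2 and 525.5 CPM in OE, without overlap between 4OHT and either construct. The sum hid opposite movements of single ligands, and 10 of the 25 ligands were called higher and 7 lower in MU against 4OHT, and 10 higher and 9 lower in OE against 4OHT. Ccl17, 1 of the 10 in each, met the minimum through MU and OE libraries alone, so its rise followed from how the genes were chosen. Ccl4, also 1 of the 10 in each, had 10, 11 and 21 counts in 4OHT and could not have met the minimum without MU or OE libraries. Among all genes tested, 29.5% were called higher and 26.5% lower in MU against 4OHT, and 29.9% and 27.9% in OE against 4OHT, so the ligands' counts stood beside a background in which 56% and 57.8% of genes were called in either direction. The median log2 fold change of the ligands was -0.054 in MU and -0.28 in OE, against 0.0435 and 0.0179 for all genes. In MU against OE the background was far smaller, with 2.12% of genes higher and 1.06% lower, and 5 of the 25 ligands were higher and 3 lower. The 17 receptors, of which 14 could be tested, had 3 called higher and 1 lower in MU against 4OHT, 3 higher and 4 lower in OE against 4OHT, and 1 higher and 1 lower in MU against OE. Both constructs were set against the same 4OHT libraries, so the first and second comparisons are not independent of each other. The study describes the constructs as delivered by lentivirus and names no empty-vector control for them. Against 4OHT, a part of the virus and a part of the constructs therefore cannot be told apart.

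The make-up of the ligand transcripts changed as well. Per kb of exon, Ccl2 and Ccl7 together led the ligands in 4OHT with 47.6% and 38.1% of the summed ligand level. Ccl6 held 1.3% of that sum in 4OHT, 18.2% in MU and 25.9% in OE, while Ccl2 went from 47.6% to 27.2% and 20.8%. Ccl3 went from 0.0836% to 3.2% and 7.01%, and Ccl9 from 0.0706% to 1.44% and 3.5%. The most abundant ligand per kb was thus Ccl2 in 4OHT, Ccl7 in MU and Ccl6 in OE, although in OE the shares of Ccl6 (25.5% to 26.5% in the 3 libraries) and Ccl7 (24.3% to 26.4%) overlapped.

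**Figure D1:**
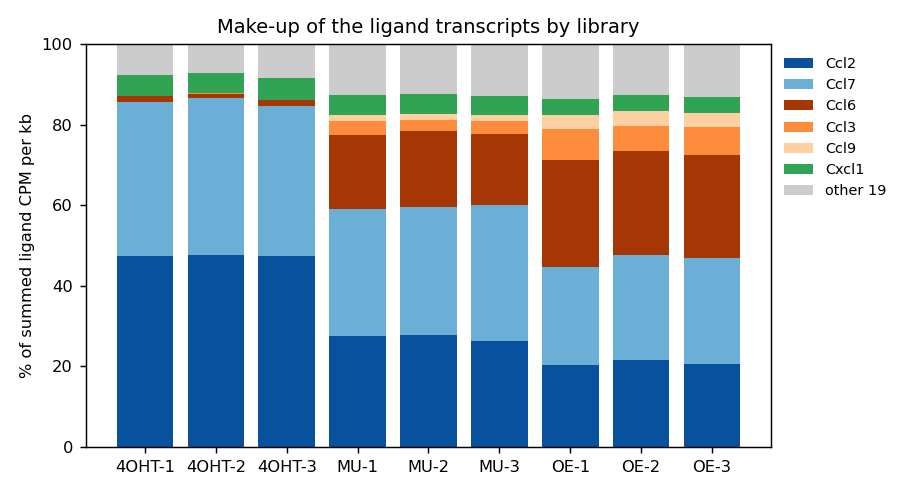
Share of each ligand in the summed ligand CPM per kb of exon (y axis, percent), for each of the 9 libraries (x axis). The 6 ligands shown by name make up most of each bar, and Ccl6 grows from 1.3% of the mean in 4OHT to 25.9% in OE while Ccl2 shrinks from 47.6% to 20.8%.

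The family sits in clusters on the mouse genome, and neighbours within a cluster did not always move the same way. Coordinates are those of GRCm38 with GENCODE vM21. On chromosome 11 the genes Ccl2, Ccl7, Ccl11, Ccl12 and Ccl8 lie within 81.23 kb, and 1409 kb farther on Ccl5, Ccl9, Ccl6, Ccl3 and Ccl4 lie within 138.9 kb. On chromosome 5, Cxcl5, Cxcl3, Cxcl1 and Cxcl2 lie within 146.6 kb, all transcribed from the same strand. No gene of the Ccl2 cluster was called higher with either construct, 4 of the 5 genes of the Ccl5 to Ccl4 cluster were called higher with both (all but Ccl5), and on chromosome 5 Cxcl5 and Cxcl1 fell while Cxcl3 and Cxcl2 rose.

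**Figure D2:**
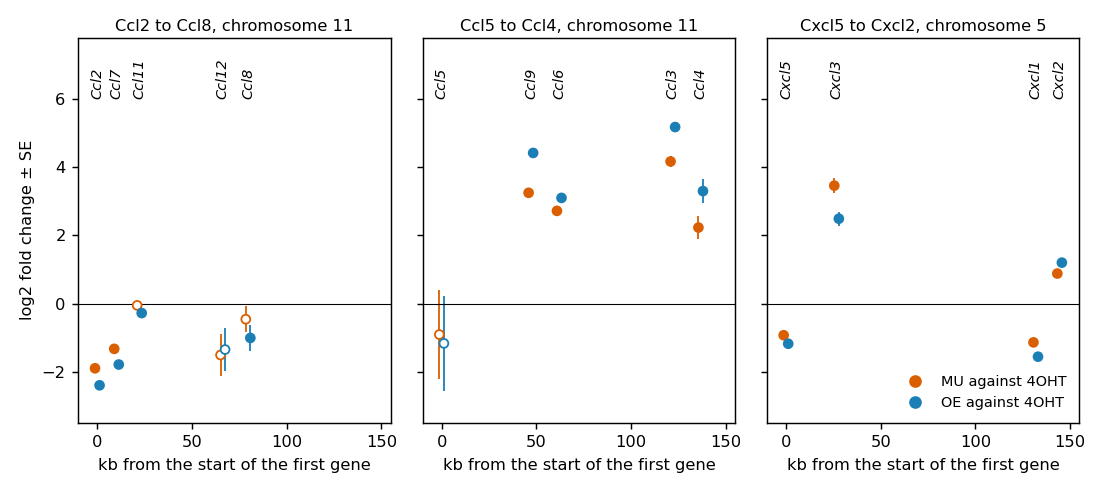
Log2 fold change ± SE (y axis) of each ligand in MU and in OE against 4OHT, by the distance of its start from the first gene of the cluster (x axis, kb), where filled points passed an adjusted p of 0.05. Ccl9, Ccl6, Ccl3 and Ccl4 lie above 0, the Ccl2 cluster lies below 0, and the chromosome 5 cluster alternates between lower (Cxcl5, Cxcl1) and higher (Cxcl3, Cxcl2).

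The promoters of 3 of the neighbours on chromosome 5 are shown because these genes belong to the same cluster and did not move in the same direction, and those of Ccl6 and Ccl9 because they are neighbours that rose together. Each runs 5′ to 3′ on the gene's strand from 250 bases before to 50 bases from the start site on (RefSeq, GRCm38.p6), with motif matches in capitals.

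Cxcl1: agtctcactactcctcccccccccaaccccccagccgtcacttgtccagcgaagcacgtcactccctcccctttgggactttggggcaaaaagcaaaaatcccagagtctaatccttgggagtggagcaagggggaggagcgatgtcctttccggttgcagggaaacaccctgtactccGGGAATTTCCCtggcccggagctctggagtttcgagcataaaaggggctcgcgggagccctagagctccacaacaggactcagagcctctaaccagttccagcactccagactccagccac

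Cxcl2: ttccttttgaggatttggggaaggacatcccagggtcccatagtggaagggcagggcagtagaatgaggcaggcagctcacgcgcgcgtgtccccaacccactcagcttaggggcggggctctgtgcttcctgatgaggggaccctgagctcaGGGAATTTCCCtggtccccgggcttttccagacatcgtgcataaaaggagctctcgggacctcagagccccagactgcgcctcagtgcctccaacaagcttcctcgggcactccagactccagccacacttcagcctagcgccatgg

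Cxcl3: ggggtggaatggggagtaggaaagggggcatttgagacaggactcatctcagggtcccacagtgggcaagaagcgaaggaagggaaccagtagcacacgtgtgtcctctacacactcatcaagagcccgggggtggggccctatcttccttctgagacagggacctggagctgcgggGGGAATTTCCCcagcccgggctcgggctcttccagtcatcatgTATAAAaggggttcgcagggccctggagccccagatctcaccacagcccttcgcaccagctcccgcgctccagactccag

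Ccl6: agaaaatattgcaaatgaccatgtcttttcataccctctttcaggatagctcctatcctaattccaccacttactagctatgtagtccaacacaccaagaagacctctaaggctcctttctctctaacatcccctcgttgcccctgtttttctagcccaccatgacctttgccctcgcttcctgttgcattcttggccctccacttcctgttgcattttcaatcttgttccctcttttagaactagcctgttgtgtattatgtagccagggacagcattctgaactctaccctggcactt

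Ccl9: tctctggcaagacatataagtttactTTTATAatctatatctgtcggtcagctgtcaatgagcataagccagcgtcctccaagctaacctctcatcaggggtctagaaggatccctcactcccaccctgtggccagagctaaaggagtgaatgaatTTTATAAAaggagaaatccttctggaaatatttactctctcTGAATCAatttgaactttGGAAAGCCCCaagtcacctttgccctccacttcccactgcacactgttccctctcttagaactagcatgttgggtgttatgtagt

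These windows are chr5:90890995-90891294 (plus strand), chr5:90903649-90903948 (plus), chr5:90785851-90786150 (plus), chr11:83593038-83593337 (minus) and chr11:83578587-83578886 (minus). The motifs searched, on both strands, were the NF-kB consensus, the AP-1 motif TGANTCA, the TATA motif TATAAA and an interferon response motif of 10 letters (a pair of GAAA runs with any 2 bases between). Cxcl1, Cxcl2 and Cxcl3 carried the same NF-kB letters, GGGAATTTCC, with the first base at position -71, -97 and -73 from the start site (position 0), and the match on the other strand overlapped it, so that the capitals run to GGGAATTTCCC. Thus Cxcl1, which fell, and Cxcl2 and Cxcl3, which rose, held identical letters there. Cxcl3 had in addition TATAAA at position -30. Ccl9 held an NF-kB match on the minus strand of the window (capitals GGAAAGCCCC, position -35), the AP-1 match TGAATCA (position -53) and TATAAA matches, of which 2 overlap in the capitals TTTATAAA. Ccl6 held none of the 4 motifs, which says only that these letters are not in this window.

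Of the 42 genes, 31 had a promoter in the table, with 34 entries. An NF-kB match was found in 8 of these 34 (23.5%; Ccl9, Ccl20, Ccl27a, Cxcl1, Cxcl2, Cxcl3, Cxcl10 and Ackr2), against 4.51% of 32851 mouse promoters of the same length. TGANTCA was found in 5 (14.7%, against 7.81%), TATAAA in 10 (29.4%, against 13.6%) and the interferon response motif in 2, Cxcl10 and Cxcl14 (5.88%, against 3.44%). Ccl2, Ccl4, Ccl5, Ccl7, Ccl11, Cxcl5, Cxcl16, Ccr7, Ccr10 and Cxcr5 had no entry. These matches are a description of letters and were not tested against the fold changes.

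Ccl2 and Ccl7, which attract monocytes, fell with both constructs. Ccl2 (ENSMUSG00000035385, chr11:82035571-82037453), the main attractant of monocytes, stood at 491, 470.2 and 396 CPM in 4OHT, 124, 123 and 117 CPM in MU and 83.7, 88.7 and 83.8 CPM in OE. The groups did not overlap, and MU lay between the others. Ccl2 was 3.73-fold lower in MU (log2 fold change -1.90 ± 0.071 SE, adjusted p = 7.21e-11) and 5.3-fold lower in OE (-2.40 ± 0.073, adjusted p = 6.92e-12) than in 4OHT. Ccl7 (ENSMUSG00000035373, chr11:82045712-82047525), its neighbour and a close relative that also attracts monocytes, went from 278, 269 and 219 CPM in 4OHT to 100.1, 98.6 and 106 CPM in MU and 70.2, 75.5 and 76.2 CPM in OE, again without overlap. Its fold changes were 2.51-fold lower (adjusted p = 4.83e-09) and 3.45-fold lower (adjusted p = 2.37e-10). Both were higher in MU than in OE, Ccl2 1.42-fold (adjusted p = 0.000798) and Ccl7 1.37-fold (adjusted p = 0.00369). Their receptor Ccr2 was not among the 42 genes, having at most 12 counts in any library.

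The other genes of that cluster were lower in level, and in MU none of them was called. Ccl11 (eotaxin, which attracts eosinophils) lay at 13.7 to 15.5 CPM in 4OHT, 13.8 to 14.1 CPM in MU and 11.3 to 13.2 CPM in OE. It was called lower in OE (log2 fold change -0.28 ± 0.087 SE, adjusted p = 0.0138), a call lost without OE replicate 2 (adjusted p = 0.0675) and with library totals as the only scaling (adjusted p = 0.079), and was not called in MU (-0.054). MU against OE was not called either (adjusted p = 0.264). Ccl8 (another attractant of monocytes) stood at 2.5, 0.956 and 0.77 CPM in 4OHT, 1.11, 0.748 and 1.2 CPM in MU and 0.64, 0.812 and 0.644 CPM in OE, with 1 high library in 4OHT. Its call in OE (log2 fold change -1.01, adjusted p = 0.0417) was lost without 4OHT replicate 1 (log2 fold change -0.32, adjusted p = 0.411), MU replicate 1 or any OE library (adjusted p from 0.0558 to 0.112), and MU was called against neither 4OHT (adjusted p = 0.326) nor OE (adjusted p = 0.653). Ccl12, a close relative of Ccl2, stood at 0.672, 0.394 and 0.257 CPM in 4OHT, 0.253, 0.156 and 0.0547 CPM in MU and 0.148, 0.182 and 0.185 CPM in OE. Its log2 fold changes of -1.51 ± 0.62 SE in MU (adjusted p = 0.0534) and -1.35 ± 0.63 SE in OE (adjusted p = 0.0848) did not pass the test. In MU it was called lower with DESeq2 (0.0235), with DESeq2's scaling (0.0494) and without 4OHT replicate 3 (0.0323) or MU replicate 1 (0.0328).

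Fibroblast markers moved alongside these ligands. The 12 markers, led by Fn1, Col1a2 and Col1a1, were all detected and summed to 9065–10940 CPM in 4OHT, 4922–4993 CPM in MU and 3853–3937 CPM in OE. Of them 11 were lower and 1 (Dcn) higher in MU against 4OHT, 11 were lower and none higher in OE against 4OHT, and 11 were higher in MU than in OE, with median log2 fold changes of -0.88, -1.06 and 0.35. In MU against OE the calls of Col1a1 and Fn1 were lost without any single MU or OE library (adjusted p from 0.0648 to 0.136 and from 0.115 to 0.154). That of Fn1 was also lost with DESeq2's scaling (0.0539). Single markers ran from -2.02 (Twist2) to 0.17 (Dcn) in MU and from -2.36 (Twist2) to -0.26 (Dcn) in OE against 4OHT, beside -1.90 and -2.40 for Ccl2 and -1.33 and -1.79 for Ccl7. The part of feeder or other fibroblast RNA in the fall of the ligands was not tested, and in bulk libraries fewer cells of a type and less RNA per cell cannot be told apart.

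Of the other cluster, Ccl3, Ccl4, Ccl6 and Ccl9, CC ligands typical of macrophages, rose with both constructs. Ccl3 (ENSMUSG00000000982, chr11:83647844-83649355), known as MIP-1 alpha and made by activated macrophages, stood at 0.422, 0.681 and 0.491 CPM in 4OHT, 10.6, 8.71 and 9.53 CPM in MU and 21.3, 17.3 and 19.5 CPM in OE. Every MU library lay above every 4OHT library and below every OE library. The rise was 18-fold in MU (log2 fold change 4.17 ± 0.16 SE, adjusted p = 9.85e-11) and 36.3-fold in OE (5.18 ± 0.16, adjusted p = 1.09e-11), and MU was 2.02-fold lower than OE (adjusted p = 0.00033). Ccl4 (MIP-1 beta, its neighbour on the opposite strand) was rarer, at 0.132, 0.132 and 0.234 CPM in 4OHT, 1.08, 0.579 and 0.711 CPM in MU and 1.39, 1.72 and 1.83 CPM in OE. It rose 4.7-fold (adjusted p = 7.67e-05) and 9.83-fold (adjusted p = 2e-06), though as given above it met the minimum only with MU or OE libraries. Its difference between MU and OE, log2 -1.07 ± 0.30 SE, did not pass the test (adjusted p = 0.086). It did with DESeq2 (adjusted p = 0.0255), with only the 6 libraries compared (0.0256), with counts divided by 4 (0.0274) and without 4OHT replicate 3 (0.0405).

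Ccl6 (ENSMUSG00000018927, chr11:83587882-83593087), a mouse chemokine of macrophages and other myeloid cells, was the most abundant of the rising ligands. It stood at 21.9, 18.6 and 18.1 CPM in 4OHT, 129, 131 and 125 CPM in MU and 171, 166 and 165 CPM in OE, a rise of 6.58-fold (adjusted p = 1.89e-12) and 8.6-fold (adjusted p = 4.55e-13). MU was 1.31-fold lower than OE (adjusted p = 0.00279). Ccl9 (ENSMUSG00000019122, chr11:83572919-83578636), which lies next to Ccl6 and acts on CCR1, stood at 2.06, 1.95 and 1.42 CPM in 4OHT, 17.7, 17.1 and 16.6 CPM in MU and 39.1, 39.6 and 36.7 CPM in OE. The rise was 9.52-fold (adjusted p = 3.29e-11) and 21.4-fold (adjusted p = 1.77e-12), and the difference between MU and OE was 2.25-fold (log2 -1.17 ± 0.093 SE, adjusted p = 1.09e-05). Ccl5, the remaining gene of the cluster and a ligand of T cells and macrophages, lay between 0 and 0.239 CPM in all libraries and passed no test.

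Macrophage markers moved in the same order as these ligands. Of 17 listed markers 16 were matched and tested, none was at 0 in all libraries, and they summed to 184.9–200.4 CPM in 4OHT, 1180–1213 CPM in MU and 2273–2401 CPM in OE, led by Lyz2, Mpeg1 and Laptm5. With each construct 14 were higher than in 4OHT, 1 (C1qa) was lower and 1 (Fcgr1) was not called, with median log2 fold changes of 2.70 in MU and 3.61 in OE. In MU against OE 10 were lower, 1 (Msr1) was higher and 5 were not called, with a median of -0.85. The call of Msr1 in OE against 4OHT (log2 0.33, adjusted p = 0.0408) was lost without any library except 4OHT replicate 2 (0.0567 to 0.157). It was also lost with DESeq2's scaling (0.0534), no filter (0.0653), counts divided by 4 (0.0678), the 6 libraries compared (0.123) and the replicate block (0.0606). The part of macrophage RNA in the rise of the ligands was not tested. Markers of neutrophils summed to 1.852–4.147 CPM in any library, and their defining genes Ly6g, S100a9 and Retnlg had at most 12 counts in every library.

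**Figure D3:**
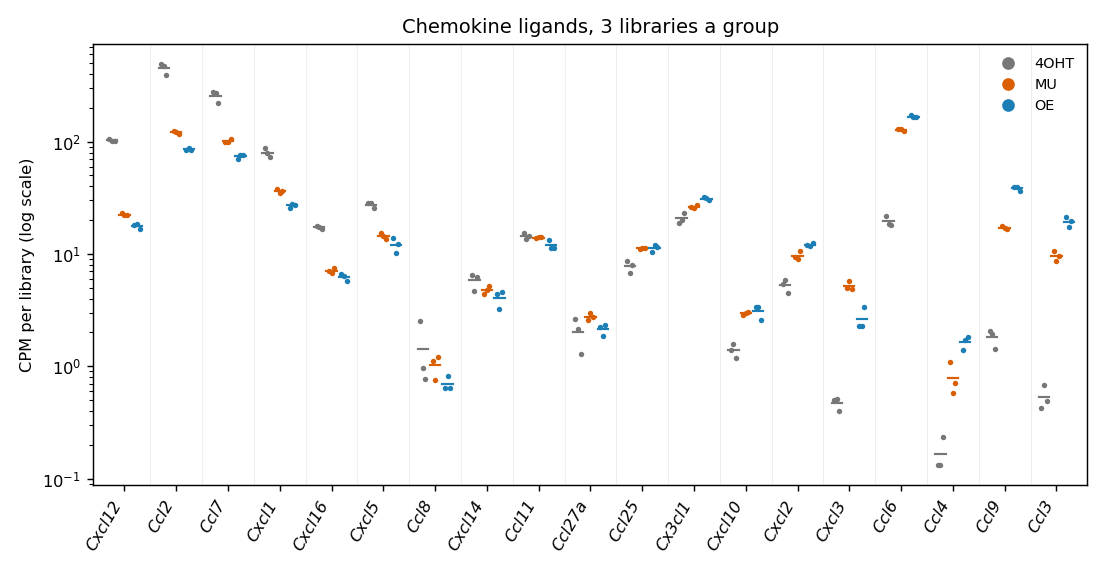
CPM of the 19 ligands with a mean of at least 1 CPM in at least 1 group (y axis, log scale), each point 1 library and each bar the mean of 3 libraries, ordered from the strongest fall in OE against 4OHT (left) to the strongest rise (right). Cxcl12, Ccl2, Ccl7 and Cxcl1 lie highest in 4OHT, while Ccl6, Ccl9 and Ccl3 lie highest in OE, and Cxcl3 lies highest in MU.

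The CXC ligands that attract neutrophils through CXCR2 split. Cxcl1 (ENSMUSG00000029380, chr5:90891241-90893115), made by fibroblasts and epithelia under NF-kB, stood at 87.9, 79.1 and 73.2 CPM in 4OHT, 37.6, 35.2 and 36.5 CPM in MU and 25.9, 28.1 and 27.2 CPM in OE. It was 2.2-fold lower in MU (adjusted p = 6.09e-09) and 2.96-fold lower in OE (adjusted p = 2.5e-10), and 1.35-fold higher in MU than in OE (adjusted p = 0.00243). Cxcl5 (ENSMUSG00000029371, chr5:90759360-90761624), of the same class, fell from 28.4, 28.4 and 25.6 CPM in 4OHT to 15.3, 14.4 and 13.6 CPM in MU and 13.9, 10.1 and 12.3 CPM in OE. Its log2 fold changes were -0.93 ± 0.10 SE (adjusted p = 2.86e-06) and -1.18 ± 0.10 SE (adjusted p = 2.64e-07), and MU and OE overlapped.

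Cxcl2 (ENSMUSG00000058427, chr5:90903871-90905938), whose product also acts on CXCR2 and is typical of macrophages, went the other way, from 5.44, 5.84 and 4.5 CPM in 4OHT to 9.46, 9.01 and 10.6 CPM in MU and 12, 11.8 and 12.5 CPM in OE. It rose 1.84-fold (adjusted p = 1.16e-05) and 2.3-fold (adjusted p = 5.19e-07). MU against OE, log2 -0.32 ± 0.11 SE, did not pass the test (adjusted p = 0.171), while it did with only the 6 libraries compared (adjusted p = 0.0414). Cxcl3 (ENSMUSG00000029379, chr5:90786103-90789600), a close relative of Cxcl1 and Cxcl2, stood at 0.501, 0.514 and 0.402 CPM in 4OHT, 5.01, 5.73 and 4.86 CPM in MU and 2.29, 2.29 and 3.35 CPM in OE. Here MU was the highest group, without overlap with either of the others, unlike Cxcl2. Cxcl3 rose 11-fold in MU (log2 fold change 3.46 ± 0.21 SE, adjusted p = 6.33e-09) and 5.63-fold in OE (2.49 ± 0.21, adjusted p = 1.45e-07), and was 1.96-fold higher in MU than in OE (adjusted p = 0.00681). That last call was lost without MU replicate 2 (adjusted p = 0.0599), OE replicate 1 (0.0505) or OE replicate 2 (0.0525). Of the receptors for these ligands, Cxcr1 lay at 0.0923 to 0.223 CPM in 4OHT, up to 0.0841 CPM in MU and up to 0.16 CPM in OE without a call, and Cxcr2 was not among the 42 genes.

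Cxcl12 (ENSMUSG00000061353, chr6:117168535-117181367), the stromal ligand that keeps SSCs and other stem cells in place through CXCR4, had the most negative log2 fold change of the 25 ligands against 4OHT with each construct. It stood at 106, 101 and 102 CPM in 4OHT, 22.9, 22 and 22.3 CPM in MU and 18, 18.4 and 16.5 CPM in OE. The groups did not overlap. It was 4.61-fold lower in MU (log2 fold change -2.20 ± 0.058 SE, adjusted p = 2.82e-12) and 5.86-fold lower in OE (-2.55 ± 0.059, adjusted p = 6.6e-13), and 1.27-fold higher in MU than in OE (adjusted p = 0.00315). Its receptor Cxcr4 (ENSMUSG00000045382, chr1:128588199-128592293) moved the opposite way, from 1.57, 1.34 and 1.8 CPM in 4OHT to 4.33, 3.28 and 3.74 CPM in MU and 4.73, 3.55 and 3.99 CPM in OE. Cxcr4 rose 2.41-fold (adjusted p = 2.5e-05) and 2.6-fold (adjusted p = 1.15e-05), and the difference between MU and OE was log2 -0.11 ± 0.17 SE (adjusted p = 0.87).

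Ackr3 (ENSMUSG00000044337, chr1:90203980-90216751), the atypical receptor that binds CXCL12 and carries it into the cell, stood at 9.94, 6.81 and 8.88 CPM in 4OHT, 7.1, 7.23 and 6.74 CPM in MU and 4.52, 3.67 and 4.52 CPM in OE. MU overlapped 4OHT, and OE lay below both. Ackr3 was 2.01-fold lower in OE than in 4OHT (adjusted p = 2.95e-05) and 1.66-fold higher in MU than in OE (log2 0.73 ± 0.14 SE, adjusted p = 0.00958), which missed the threshold without MU replicate 2 (adjusted p = 0.0533) or OE replicate 2 (0.0573). MU against 4OHT was log2 -0.28 ± 0.14 SE (adjusted p = 0.1). It was called without 4OHT replicate 2 (log2 -0.41, adjusted p = 0.0189) and with counts divided by 4 (log2 -0.31, adjusted p = 0.0466). Per kb of exon Ackr3 was the most abundant receptor in 4OHT (2.55 CPM per kb, against 0.867 for Cxcr4 and 0.541 for Ccr1), whereas Ccr1 was in MU (2.45, against 2.1 for Ackr3) and in OE (3.88, against 2.26 for Cxcr4).

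Ccr1 (ENSMUSG00000025804, chr9:123962124-123968692), a receptor of monocytes and macrophages for CCL3, CCL6, CCL7 and CCL9 among others, rose with the ligands of the Ccl5 to Ccl4 cluster. It stood at 1.69, 1.15 and 1.76 CPM in 4OHT, 7.01, 6.31 and 7.53 CPM in MU and 10.8, 11 and 11.1 CPM in OE, without overlap between any groups. The rise was 4.53-fold in MU (log2 fold change 2.18 ± 0.15 SE, adjusted p = 2.47e-08) and 7.17-fold in OE (2.84 ± 0.15, adjusted p = 1.7e-09). MU was 1.58-fold lower than OE (adjusted p = 0.0139), and this call ended on leaving out MU replicate 1, MU replicate 2 or any OE library, with adjusted p from 0.0512 to 0.103 and a log2 fold change from -0.67 to -0.59.

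**Figure D4:**
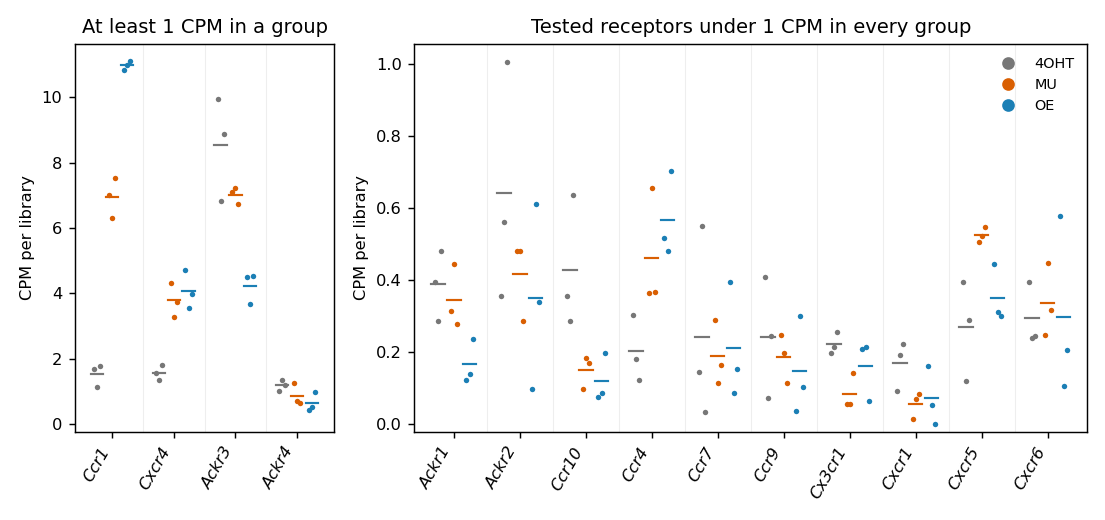
CPM of the 14 receptors that were tested in each library (y axes, linear, on different scales left and right), each point 1 library and each bar the mean of 3 libraries. Ccr1 and Cxcr4 lie lowest in 4OHT and Ackr3 lowest in OE, while the other 11 receptors stay at or near 1 CPM and below.

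Of the other ligands with a mean of at least 1 CPM, Cxcl16 fell and Cx3cl1, Cxcl10 and Ccl25 rose with both constructs. Cxcl16 (ENSMUSG00000018920, chr11:70453983-70459984), a membrane-bound ligand that also takes up lipids, fell from 17.9, 17.4 and 16.5 CPM in 4OHT to 7, 6.71 and 7.55 CPM in MU and 6.61, 6.34 and 5.7 CPM in OE, 2.44-fold (adjusted p = 3.99e-08) and 2.78-fold (adjusted p = 1.02e-08) lower. Cx3cl1 (ENSMUSG00000031778, chr8:94772009-94782427), the membrane-bound fractalkine, rose from 19, 20.1 and 23.4 CPM in 4OHT to 26.1, 25.7 and 27.2 CPM in MU and 32.1, 31.4 and 30.1 CPM in OE, 1.26-fold (adjusted p = 0.0017) and 1.5-fold (adjusted p = 1.57e-05). MU against OE was log2 -0.24 ± 0.075 SE (adjusted p = 0.125). This difference was called with DESeq2 (adjusted p = 0.0399), with only the 6 libraries compared (0.0107) and without 4OHT replicate 3 (0.024). Its receptor Cx3cr1 lay between 0.0555 and 0.257 CPM in all libraries and passed no test.

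Cxcl10 (ENSMUSG00000034855, chr5:92346638-92348889), induced by interferon and acting on CXCR3, rose from 1.38, 1.58 and 1.18 CPM in 4OHT to 2.89, 2.97 and 3.01 CPM in MU and 3.36, 3.38 and 2.56 CPM in OE. The rise was 2.14-fold (adjusted p = 8.93e-05) and 2.24-fold (adjusted p = 5.62e-05), and MU and OE overlapped. Ccl25 (ENSMUSG00000023235, chr8:4325210-4360020), a thymic and gut ligand of CCR9, lay at 6.84 to 8.69 CPM in 4OHT, 11.1 to 11.3 CPM in MU and 10.3 to 11.9 CPM in OE, with rises of 1.43-fold (adjusted p = 0.000625) and 1.44-fold (adjusted p = 0.000549). Cxcl14 (ENSMUSG00000021508, chr13:56288643-56296551), a ligand of epithelia and fibroblasts, lay at 4.7 to 6.5 CPM in 4OHT, 4.36 to 5.2 CPM in MU and 3.21 to 4.59 CPM in OE and was called lower in OE (log2 fold change -0.51 ± 0.16 SE, adjusted p = 0.0165) but neither in MU against 4OHT (0.158) nor between MU and OE (0.653). The call in OE was lost without 4OHT replicate 1 (adjusted p = 0.059), 4OHT replicate 3 (0.0502) or OE replicate 2 (0.0899). Ccl27a (ENSMUSG00000073888, chr4:41769467-41774247), a skin chemokine, lay between 1.29 and 2.97 CPM in all libraries and passed no test in the model of all 9 libraries. In MU against 4OHT it was called higher without 4OHT replicate 1 (log2 0.67, adjusted p = 0.0266). Every MU library lay above every OE library, without a call (adjusted p = 0.561). Near-identical copies of Ccl27a leave its counts uncertain. Cxcl16, Cxcl10, Ccl25 and Ccl27a each overlap a gene on the other strand (Zmynd15, Art3, Elavl1 and Il11ra1), and Ackr4 overlaps Acad11. Whether the counting used strand is not given in the sources used here, so reads of these partners cannot be told apart.

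**Figure D5:**
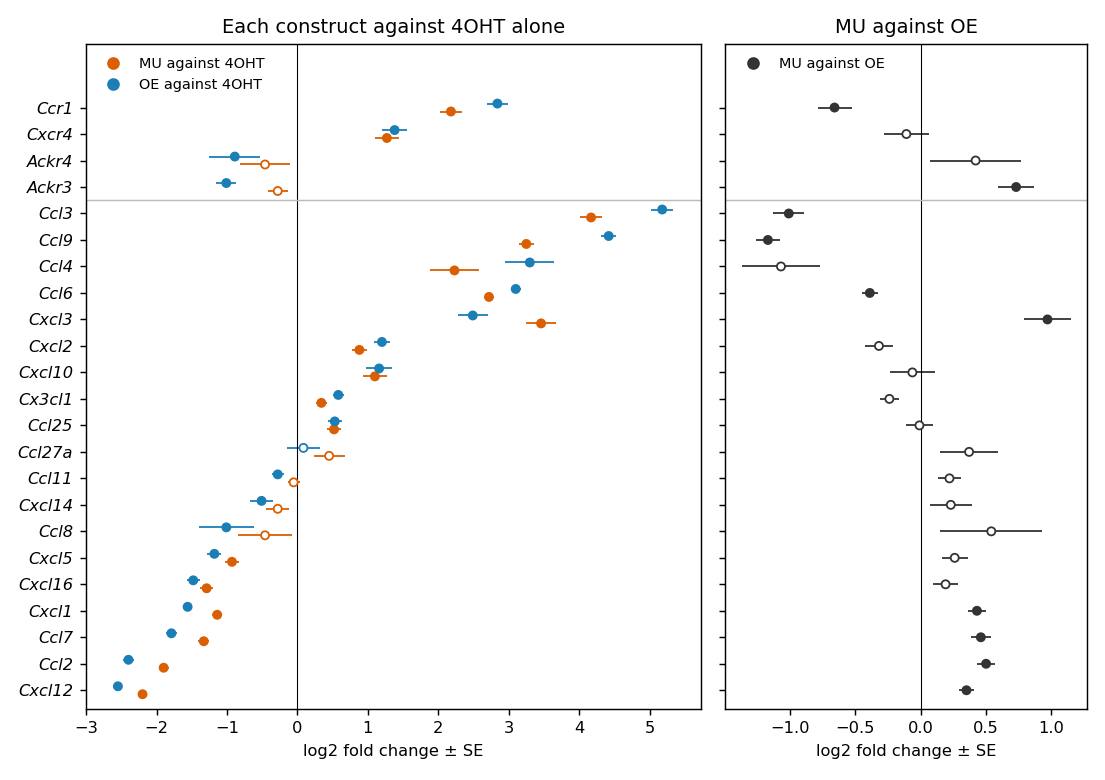
Log2 fold change ± SE (x axes) of the 19 ligands and, above the line, 4 receptors with a mean of at least 1 CPM in at least 1 group, in MU and OE against 4OHT (left) and in MU against OE (right), where filled points passed an adjusted p of 0.05. Cxcl3 and Ccr1 lie on opposite sides of 0 on the right although both rose on the left.

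Ackr4 (ENSMUSG00000079355, chr9:104084157-104126933), a scavenger of CCL19, CCL21 and CCL25, stood at 1.01, 1.36 and 1.21 CPM in 4OHT, 1.25, 0.708 and 0.644 CPM in MU and 0.418, 0.513 and 0.976 CPM in OE. It was called lower in OE (log2 fold change -0.89 ± 0.36 SE, adjusted p = 0.0483), close to the threshold, and the call was lost without any of 5 libraries (4OHT replicate 2 or 3, MU replicate 2, OE replicate 1 or 2), with adjusted p from 0.0551 to 0.173, and with scaling by library totals alone (0.0721), no filter on low counts (0.0835) or all counts divided by 4, about the number of read pairs (0.0556). MU was called against neither 4OHT (adjusted p = 0.285) nor OE (adjusted p = 0.717). The 4 atypical receptors together summed to 11.7, 9.024 and 11.57 CPM in 4OHT, 9.148, 8.863 and 7.946 CPM in MU and 5.156, 4.927 and 6.074 CPM in OE. The 13 typical receptors summed to 5.602, 4.721 and 5.991 CPM in 4OHT, 13.49, 12.12 and 13.38 CPM in MU and 17.99, 16.42 and 16.86 CPM in OE. The typical sum was thus lowest and the atypical sum, with an overlap between 4OHT and MU, highest in 4OHT.

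Of the genes under a mean of 1 CPM in every group, 5 passed a test in some comparison, and these are named although their values are low. Ccl17, a ligand of CCR4 made by dendritic cells and macrophages, had no count in any 4OHT library, 0.218, 0.28 and 0.219 CPM in MU and 0.258, 0.267 and 0.338 CPM in OE. Set against the mean level that 12 counts correspond to in 4OHT, it was at least 1.65-fold higher in MU and at least 1.98-fold higher in OE, a description, since these libraries alone brought it past the minimum. Ccr4, the receptor of CCL17, stood at 0.303, 0.179 and 0.123 CPM in 4OHT, 0.364, 0.655 and 0.366 CPM in MU and 0.517, 0.481 and 0.702 CPM in OE, and was called higher with both constructs (adjusted p = 0.0306 and 0.0101). With 23, 15 and 11 counts in 4OHT, Ccr4 could not have met the minimum without MU or OE libraries. The call in MU was lost with the replicate number as a block in the model (0.0526) and without 4OHT replicate 2 (0.082), 4OHT replicate 3 (0.105) or MU replicate 2 (0.176). Ccr10, a receptor of CCL27 and CCL28, stood at 0.356, 0.287 and 0.636 CPM in 4OHT, 0.0961, 0.182 and 0.168 CPM in MU and 0.0738, 0.0855 and 0.198 CPM in OE, and was called lower with both (adjusted p = 0.0435 and 0.0224). Its call in MU was lost with library totals alone (0.0577), no filter (0.0755), the replicate block (0.0585) and without 4OHT replicate 1, 4OHT replicate 3 or any MU library (0.0539 to 0.213), and its call in OE without 4OHT replicate 3 (0.119), OE replicate 1 (0.065) or OE replicate 2 (0.0671). With counts divided by 4, Ccr10 was called with neither construct. Ccl28, a mucosal ligand, was called lower in MU (0.41, 0.0713 and 0.412 CPM, against 0.751, 0.873 and 1.17 CPM in 4OHT, adjusted p = 0.0161), and at 0.517, 0.331 and 0.6 CPM in OE was not (adjusted p = 0.147), while MU and OE did not differ past the threshold (adjusted p = 0.667). In OE it was called with a model of only the 6 libraries compared (0.0403) or without MU replicate 2 (0.0322). Ackr1, which binds many inflammatory chemokines on endothelium and red cells, was called lower in OE (0.123, 0.139 and 0.236 CPM, against 0.395, 0.287 and 0.48 CPM in 4OHT, adjusted p = 0.0443) with no call in MU against 4OHT (0.786) or against OE (0.377). Its call in OE was lost with library totals alone (0.0584), no filter (0.0843), the 6 libraries compared (0.0801), the replicate block (0.0649) and without any library except 4OHT replicate 2 or OE replicate 3 (0.0532 to 0.121). With counts divided by 4, Ackr1 was not called in OE either. It overlaps Cadm3 on the same strand. Ccl12, Ccl20, Ccl22, Ackr2, Ccr7, Ccr9, Cx3cr1, Cxcr1, Cxcr5, Cxcr6 and Ccl5 passed no test, and Ccr8 and Xcr1 had too few counts to be tested.

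MU against OE gave the test of whether the groups with the constructs differed. Prmt5 level also differed between MU and OE, as given above, so level and mutation cannot be told apart. With 3.17% of all genes called in either direction, 10 of the 39 genes of the family that were tested were called, 6 higher in MU (Ccl2, Ccl7, Cxcl1, Cxcl3, Cxcl12 and Ackr3) and 4 lower (Ccl3, Ccl6, Ccl9 and Ccr1). The folds were between 1.27 and 2.25, and only Cxcl3 and Ackr3 among those higher exceeded 1.5-fold. For each of these genes but Cxcl3 the mean of MU lay between those of 4OHT and OE. Fibroblast and macrophage markers differed between MU and OE in the directions given above, and their part in these differences was not tested.

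Genes that act below chemokine receptors were taken from a list of 40, of which 39 were tested. In MU against 4OHT 20 were higher and 14 lower, in OE against 4OHT 20 and 13, and in MU against OE 1 and 8, with median log2 fold changes of 0.21, 0.35 and -0.058. Over all genes tested, 29.5% were higher and 26.5% lower in MU against 4OHT, 29.9% and 27.9% in OE against 4OHT, and 2.12% and 1.06% in MU against OE. The most abundant were Gnb1, a G protein beta subunit, at 801, 752 and 773 CPM (mean in 4OHT, MU and OE) without a call, and the small GTPases Cdc42 (432, 357 and 349.7 CPM) and Rhoa (394, 333 and 321 CPM), which fell with both constructs (log2 fold changes -0.27 and -0.30 for Cdc42, -0.24 and -0.29 for Rhoa). Gnb1 was called lower in MU against 4OHT with DESeq2 (adjusted p = 0.00828), DESeq2's scaling (0.0244) and counts divided by 4 (0.0195). It was also called without 4OHT replicate 1 (0.029) or 4OHT replicate 3 (0.0491). The call of Rhoa in MU against 4OHT was lost with library totals alone (0.061). The 8 that were lower in MU than in OE included Rac2, Vav1 and Dock2, a GTPase and its regulators that are typical of leukocytes and were picked after their values were seen. Their log2 fold changes against 4OHT were 3.87 in MU and 4.57 in OE for Rac2, 3.68 and 4.77 for Vav1, and 2.15 and 3.17 for Dock2, beside the macrophage markers given above. Rgs2, which shortens G protein signals, was the single gene of the list that was higher in MU than in OE (log2 0.31 ± 0.057 SE, adjusted p = 0.00738), a call lost without MU replicate 1 (0.0612) or OE replicate 1 (0.0539).

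Of 32 cytokine and NF-kB genes upstream of chemokines, 29 were tested. Of these 6 were higher and 15 lower in MU against 4OHT, 8 higher and 14 lower in OE against 4OHT, and 2 higher and 2 lower in MU against OE, with medians of -0.28, -0.16 and -0.003. The shares of all genes called were, in the same order, 29.5% and 26.5%, 29.9% and 27.9%, and 2.12% and 1.06%. Among the most abundant were the transcription factor Irf1 (175, 236 and 238 CPM), which rose in both (log2 0.43 and 0.44), and the kinase Chuk (91.5, 84.5 and 83.1 CPM), which was not called (adjusted p = 0.105 in MU and 0.0537 in OE against 4OHT). Chuk was called lower in both with DESeq2 (0.0363 and 0.0217), DESeq2's scaling (0.044 and 0.0299), counts divided by 4 (0.0335 and 0.0147) and without 4OHT replicate 3 (0.00798 and 0.00299). In MU against OE the calls were Il1r1 and Nfkbiz (higher, log2 0.27 ± 0.055 and 0.27 ± 0.054 SE) and Il1a and Tlr2 (lower, -1.23 ± 0.17 and -0.63 ± 0.081 SE). Il1r1 is the receptor of interleukin 1, Nfkbiz a co-regulator of NF-kB target genes, Il1a a cytokine and Tlr2 a receptor of bacterial lipoproteins. The calls of Il1r1 and Nfkbiz were each lost without any one of 4 libraries (adjusted p from 0.0671 to 0.0901 and from 0.0787 to 0.0904): MU replicate 1, MU replicate 3, OE replicate 2 or OE replicate 3 for Il1r1, and MU replicate 1, MU replicate 2, OE replicate 1 or OE replicate 2 for Nfkbiz. Against 4OHT, Il1r1 (log2 -0.75 in MU and -1.02 in OE) and Nfkbiz (-1.76 and -2.03) fell, whereas Il1a (2.42 and 3.64) and Tlr2 (1.21 and 1.84) rose.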

How the data were processed

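RNA-seq of 9 libraries of a mouse SSC line was used, 3 each of 4OHT, MU and OE. Paired reads of 150 bp had been trimmed by the authors (BBmap, Trimmomatic 0.39), then aligned by HISAT2 2.2.1 against GRCm38 and assigned to genes by StringTie 2.2.1, and the deposited values are whole-number counts per gene, not normalized. How StringTie output became whole numbers, how reads with several alignments were counted and whether strand was used are not given in the sources used here. The number of genes at 4 counts was 1.35 to 1.84 times the mean of the numbers at 3 and at 5, over the 9 libraries. From this, 1 read pair was taken as about 4 counts. Such floors cover counting error only. The median coefficient of variation between replicates, over 2742 genes with at least 100 CPM, was 6.56% in 4OHT, 2.02% in MU and 2.51% in OE, and all pairs of replicates differed by more than counting noise.

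The filter of edgeR (filterByExpr, groups given, at least 10 counts and 15 in total) left 22452 genes, which were tested in 1 model of all 9 libraries with edgeR 4.0.16 in R 4.3.3 (TMM, quasi-likelihood test, Benjamini-Hochberg, threshold 0.05). The SE of a log2 fold change was taken as its size over the square root of F. On simulated data for MU against OE with 22452 genes the steps recovered most genes changed 2-fold or more. The simulation gave every gene the same spread and changed genes in MU alone. It therefore checked that the steps ran, not their error rates in these data. Alternatives were DESeq2 1.42.0, its scaling, library totals alone, no filter, counts divided by 4, the 6 libraries compared, a replicate block, a fold of at least 1.5, and each library left out. Genes of the family were named with values where they were tested and had a mean of at least 1 CPM in at least 1 group. Of the lists (signalling, cytokine and NF-kB genes, and markers of macrophages, neutrophils, T cells, B cells, fibroblasts, endothelium, Sertoli or Leydig cells and spermatogonia) the 3 most abundant genes were named, and genes outside these rules were chosen after their values were seen. Some genes are not reported here by name. The genes and lists were chosen with earlier results of these data known. Coordinates and exon lengths came from GENCODE vM21, promoters from RefSeq (GRCm38.p6), and 53706 of the 53801 gene identifiers matched GENCODE. Python 3.11.15 with pandas 2.3.3 was used for tables.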

Additional observations from a re-analysis of the deposited data

How the results depend on the processing

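The number of ligands called higher or lower against 4OHT stayed within 1.5 times its value under every alternative run, as did the number of receptors called higher, whereas the number of receptors called lower did not. Receptors called lower in MU against 4OHT, 1 of 14, were 0 with library totals alone, without a filter and with the replicate block, and 0 to 2 with a library left out. With counts divided by 4 the 1 called was Ackr3 in place of Ccr10. Receptors called lower in OE against 4OHT, 4 of 14, were 2 with library totals alone, without a filter and with the replicate block, 1 with counts divided by 4, and 1 to 4 with a library left out. In MU against OE, the 5 ligands called higher were 1 at 1.5-fold or more, the 3 called lower were 5 with DESeq2, 6 with only the 6 libraries compared and 3 to 5 with a library left out (5 without 4OHT replicate 3), and the single receptor called higher and the single one called lower were each 0 to 1 with a library left out. Of all genes, 12571 were called in MU against 4OHT and 12967 in OE against 4OHT, and 7382 and 7918 at 1.5-fold or more. For MU against OE, 712 became 1140 with DESeq2, 1565 with the 6 libraries compared, 241 at 1.5-fold or more, and 400 (without MU replicate 2) to 1099 (without 4OHT replicate 3) with a library left out; without MU replicate 1, MU replicate 3 and OE replicate 3 they were 432, 411 and 472. The cause of these shifts was not tested. Library totals alone moved the median log2 fold change of all genes to 0.156 in MU and 0.106 in OE against 4OHT.

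Among the genes named, signs turned for genes that had not been called. With library totals alone these were Ccl11 in MU against 4OHT (0.058), Tek (0.077), Gnb1 in MU (0.022) and OE (0.038) against 4OHT, and, in MU against OE, Ccl25 (0.014) and Irf1 (0.012). Without a filter they were Ccl11 (0.008), Tek (0.027), Ccl25 (0.028), Uchl1 (0.003) and Irf1 (0.026). With a library left out, the log2 fold change in MU against 4OHT ranged across 0 for Ccl8 (-0.77 to 0.23), Camp (-0.75 to 0.22), Ms4a1 (-1.01 to 0.19), Ackr1 (-0.40 to 0.017) and Tek (-0.14 to 0.081), in OE against 4OHT for Ccl27a (-0.17 to 0.30), S100a8 (-0.02 to 0.61), Ms4a1 (-0.072 to 0.65) and Star (-0.006 to 0.34), and in MU against OE for Ccl25 (-0.068 to 0.03), Cxcl10 (-0.19 to 0.004), Cxcr4 (-0.22 to 0.002), Ccl12 (-0.69 to 0.24), Mpo (-0.075 to 0.25), Cd79a (-0.016 to 0.096), Pecam1 (-0.21 to 0.014), Wt1 (-0.077 to 0.23) and Irf1 (-0.028 to 0.009). Deviations from the group means had correlations from -0.0184 to 0.061 between libraries of the same number and from -0.0691 to 0.0606 between libraries of different numbers. Whether libraries of the same number share a culture or a batch cannot be judged from this. The replicate block ended the calls of Ackr4 (adjusted p = 0.062), Ccl8 (0.0757), Ackr1 (0.0649), the endothelial marker Pecam1 (0.0676) and the macrophage marker Msr1 (0.0606) in OE against 4OHT and of Ccr4 (0.0526) and Ccr10 (0.0585) in MU against 4OHT. Genes at a few read pairs, above all in 4OHT and OE, are limited by depth.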

Other observations

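Markers of other cell types that could carry chemokine receptors were at low levels. The 8 T cell markers, led by Lck, summed to 13.37–16.54 CPM in 4OHT, 9.307–9.646 CPM in MU and 7.556–10.07 CPM in OE. Of 5 tested, 1 was higher and 3 lower in MU against 4OHT, 1 higher and 4 lower in OE against 4OHT, and none was called in MU against OE by edgeR. The gene that rose was Cd3e, chosen here after its values were seen, at 0, 0.0478 and 0 CPM in 4OHT, 1.04, 1.13 and 1.33 CPM in MU and 1.78, 1.42 and 1.91 CPM in OE. The 5 B cell markers summed to 1.205–1.292 CPM in 4OHT, 2.677–3.306 CPM in MU and 2.903–3.303 CPM in OE. Of 3 tested, Cd79a was higher with each construct (0.672, 2.42 and 2.33 CPM as means), and the other two, Pax5 and Ms4a1, were not called. The 6 endothelial markers, led by Pecam1, Cdh5 and Tek, summed to 13.73–17.98 CPM in any library, with 1 higher and 2 lower in MU and 1 higher and 1 lower in OE against 4OHT.

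The 7 markers of Sertoli or Leydig cells, led by Sox9, Wt1 and Star, summed to 25.96–27.98 CPM in 4OHT, 19.92–21.16 CPM in MU and 16.84–20.51 CPM in OE, and of 4 tested 1 was higher and 1 lower in MU and 1 higher and 2 lower in OE against 4OHT. Of 9 neutrophil markers, led by S100a8, Mpo and Camp, 4 were tested, with 1 (Mpo) higher in both constructs and 1 (Camp) lower in OE against 4OHT. Of the 12 spermatogonial markers, 9 were higher and 3 (Gfra1, Ret and Zbtb16) lower with each construct against 4OHT, with median log2 fold changes of 0.74 in MU and 0.80 in OE. None was called in MU against OE in the edgeR model of all 9 libraries. Dazl was called lower in MU than in OE by DESeq2 (adjusted p = 0.00797). It was also called lower by edgeR with only the 6 libraries compared (0.00259) or without 4OHT replicate 3 (0.00793).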
